A study of Saccharomyces cerevisiae with 17 samples.

Results

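The genes described here are 60 intron-containing genes of budding yeast that encode neither ribosomal proteins nor meiotic proteins, among them ACT1, TUB1, TUB3, YRA1, DBP2, IWR1, UBC4 and GCR1. They were found by systematic name in the deposited table of 6692 genes, and all 60 passed the filter on low counts that left 6162 genes. The list was drawn up with earlier results of these data known. It was described as genes that rise when nonsense-mediated decay is lost, and in these data most of them did not. The RefSeq annotation of the R64 assembly (the sequence of sacCer3) gives a coding intron to 59 of them, 57 with 1 intron and 2 (DYN2 and TAD3) with 2, and none to MTR2.

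Splicing removes introns in the nucleus by recognising a short sequence at the 5′ end of the intron, a branch point sequence near its 3′ end and the 3′ splice site. A transcript that leaves the nucleus with its intron usually meets a stop codon early in translation. Nonsense-mediated mRNA decay (NMD), which needs the RNA helicase Upf1, degrades mRNAs with such early stops, and in yeast Nmd4 and Ebs1 are accessory factors bound to the Upf1 complex.

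RNA was measured in the MATa haploid strain BY4741 carrying the LEU2 plasmid pRS415, grown in SD medium without leucine to mid-log phase, in 17 libraries of poly(A) RNA. There were 5 wild type libraries (plasmid only), 3 of upf1delta::KlURA3 (upf1Δ, the gene listed as NAM7), 6 of nmd4delta::KlURA3 (nmd4Δ) and 3 of ebs1delta::KlURA3 (ebs1Δ). Every deletion carries the KlURA3 marker and the wild type does not, so marker and deletion cannot be told apart against wild type. Wild type and nmd4Δ libraries came from 2 sequencing batches, and upf1Δ and ebs1Δ from batch 1.

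Libraries held 19750807 to 59484802 counted reads, and no member had fewer than 337 reads in any library. The deleted genes matched the labels: NAM7 had 5 to 59 reads in upf1Δ against 4535 to 10325 in wild type, NMD4 17 to 61 in nmd4Δ against 805 to 1765, and EBS1 0 to 1 in ebs1Δ against 3325 to 6950. The mating type gene STE2 of MATa cells had at least 16376 reads in every library. Wild type and nmd4Δ libraries of batch 2 resembled particular libraries of batch 1, and whether they are separate cultures was not tested. Means ± SD below were therefore taken over the 3 matched sets of each genotype, and the p-values, which treat libraries as separate, measure only the spread between these libraries. Levels are given as CPM (counts scaled to a common library size by TMM). A gene was called changed at an adjusted p under 0.05 in edgeR's quasi-likelihood test with Benjamini-Hochberg adjustment over all 6162 genes, and errors of log2 fold changes are SE. The counts are per gene: spliced and unspliced transcripts of a gene were counted together, and in bulk RNA fewer cells with a transcript and less of it per cell cannot be told apart.

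The first introns of the members were mostly short and lay near the start of the reading frame. Their lengths ran from 68 to 1002 bases with a median of 111, and in 42 of the 59 the intron began within the first 10% of the coding sequence. The 5′ splice site was GTATGT in 50 of the 59, against 72.0% of the 271 intron-containing genes in the annotation. The branch sequence TACTAAC was present in the first intron of 46, against 82.3% of the 271, and 37 had both. Motifs were searched on the sense strand. Read without splicing, the first intron put an in-frame stop inside the intron in 58 of the 59, after 4 to 656 codons. PTC7, a protein phosphatase with an intron of 93 bases, was the exception: its reading frame ran through the intron to the normal stop.

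The introns below are those of the members with the 4 largest rises in upf1Δ, followed by KIN28 and CIN2, by UBC4 with the usual signals and no call, by PTC7 with its open intron, and by OM14 with the largest fall. Each is given 5′ to 3′ on the sense strand from the R64 genome of RefSeq. Capitals mark the first 6 bases, the heptamer closest to TACTAAC and the last 3 bases. In CIN2, 3 heptamers tie with 2 mismatches each, and the one nearest the 3′ end is marked.
IWR1 (chrIV:254975-255044, minus strand): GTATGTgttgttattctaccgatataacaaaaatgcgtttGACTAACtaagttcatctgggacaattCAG
MCM21 (chrIV:1103810-1103892, plus strand): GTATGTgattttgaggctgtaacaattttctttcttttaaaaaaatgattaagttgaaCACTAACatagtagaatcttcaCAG
UBC12 (chrXII:744154-744287, plus strand): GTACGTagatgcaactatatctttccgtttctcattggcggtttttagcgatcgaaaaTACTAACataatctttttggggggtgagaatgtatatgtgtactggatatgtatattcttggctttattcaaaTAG
TAD3 intron 1 (chrXII:766182-766249, minus strand): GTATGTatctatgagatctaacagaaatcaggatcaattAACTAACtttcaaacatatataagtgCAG
TAD3 intron 2 (chrXII:766074-766129, minus strand): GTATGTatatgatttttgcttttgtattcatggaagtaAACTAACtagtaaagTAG
KIN28 (chrIV:267726-267806, plus strand): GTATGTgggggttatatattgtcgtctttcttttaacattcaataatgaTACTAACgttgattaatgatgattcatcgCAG
CIN2 (chrXVI:96154-96233, minus strand): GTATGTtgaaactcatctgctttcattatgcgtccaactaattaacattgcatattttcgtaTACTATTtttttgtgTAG
UBC4 (chrII:407028-407122, minus strand): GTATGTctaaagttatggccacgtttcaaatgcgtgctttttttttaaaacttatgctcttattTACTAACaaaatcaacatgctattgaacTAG
PTC7 (chrVIII:251156-251248, plus strand): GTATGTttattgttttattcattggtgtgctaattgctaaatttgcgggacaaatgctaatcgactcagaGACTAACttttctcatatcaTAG
OM14 (chrII:679943-680039, minus strand): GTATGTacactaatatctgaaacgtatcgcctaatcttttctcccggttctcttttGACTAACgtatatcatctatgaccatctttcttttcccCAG
IWR1, MCM21, CIN2, PTC7, OM14 and both introns of TAD3 have the usual start GTATGT and no TACTAAC. UBC12 has TACTAAC, but its intron starts with GTACGT and lies 3 bases into the reading frame, directly after the start codon. KIN28 and UBC4 carry both usual signals.

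Loss of Upf1 moved the members in both directions and most of them little. Of the 60, 19 rose, 24 fell and 17 were not called, which is 31.7% higher and 40% lower. Across all genes tested, 36.4% were called higher and 35.1% lower in upf1Δ. The median log2 fold change of the members was -0.07, and that of all genes tested was -0.02. Of the members, 4 rose at least 2-fold (IWR1, MCM21, UBC12 and TAD3) and none fell by that much, with a range of log2 fold changes from -0.54 to 1.91. Over all 6162 genes tested, 946 rose and 39 fell at least 2-fold. TAD3 was at the 2-fold limit, with log2 fold changes of 0.93 to 1.03 when 1 library was left out. In 15 members every upf1Δ library lay above every wild type library, and in 19 every one lay below, against 35.4% and 31.4% of all genes. The median of the members was -0.0415 without wild type replicate 1 and -0.102 without upf1Δ replicate 2.

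**Figure D1:**
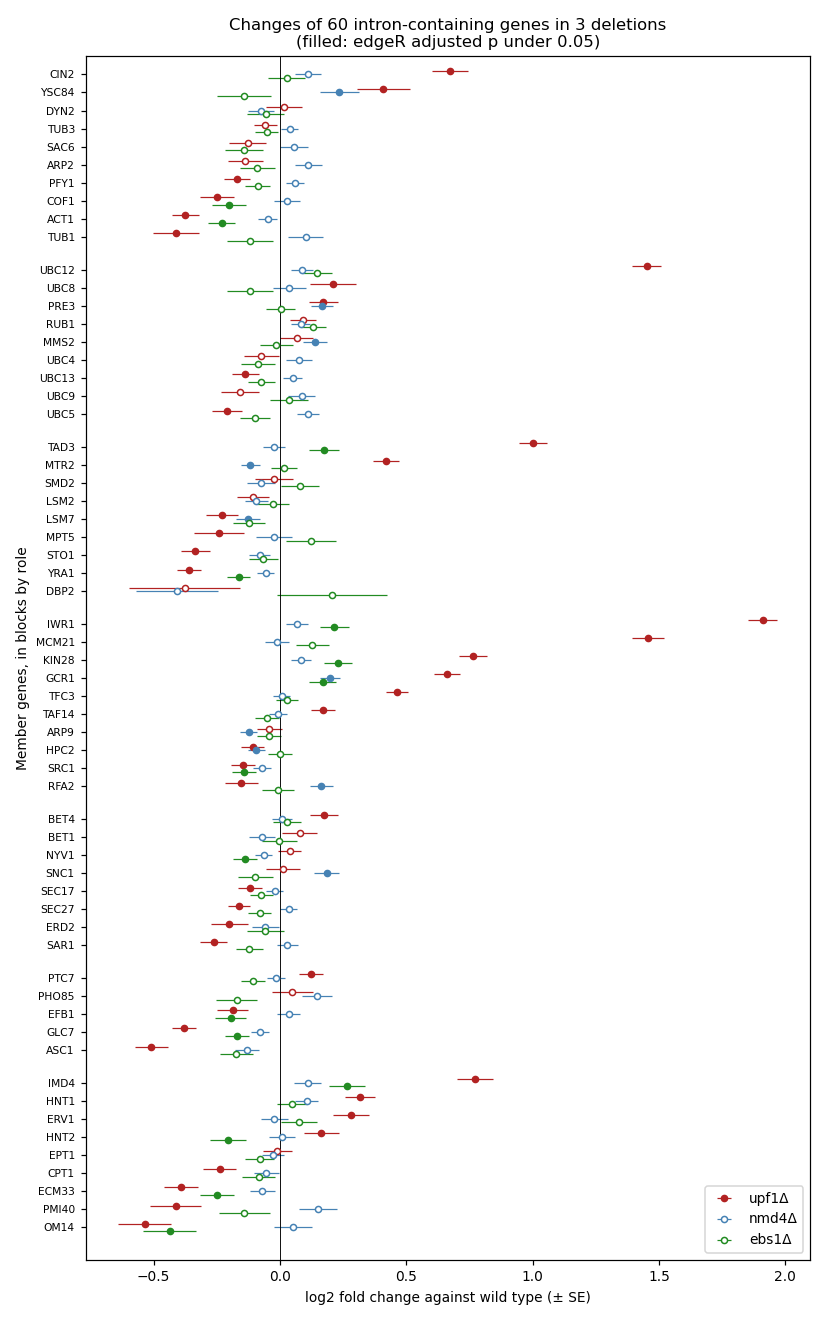
Log2 fold change against wild type (horizontal axis, ± SE) of the 60 members in blocks by role, in upf1Δ, nmd4Δ and ebs1Δ; filled points have an edgeR adjusted p under 0.05. IWR1, MCM21 and UBC12 (1.45 to 1.91 in upf1Δ) stand apart from the rest, and TAD3 (1.00) lies nearer to IMD4 (0.77) and KIN28 (0.76). The nmd4Δ and ebs1Δ points lie between -0.44 and 0.26.

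Members of transcription and chromosome biology included IWR1 (YDL115C) and MCM21 (YDR318W), the largest rises. Of 10 such members, 6 rose, 3 fell and 1 was not called in upf1Δ, with a median log2 fold change of 0.32. The counts by role stand beside 36.4% of all genes called higher and 35.1% called lower. IWR1, which carries RNA polymerase II into the nucleus, was at 40.3, 41.9, 40.1, 39.6 and 43.8 CPM in the wild type libraries, 148, 162 and 165 CPM in upf1Δ, 40.2 to 45.9 CPM with a median of 43.2 in nmd4Δ, and 50.0, 46.1 and 50.8 CPM in ebs1Δ. The upf1Δ libraries lay far above all others, and those of ebs1Δ lay above every wild type library. Its mean level was 158 ± 8.81 CPM in upf1Δ against 41.6 ± 1.96 CPM in wild type (SD, n = 3 sets), a log2 fold change of 1.91 ± 0.0571 and a fold of 3.76 (edgeR adjusted p = 6.81e-16).

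MCM21 encodes a kinetochore protein of the COMA complex. Its level was 17.3, 17.1, 16.7, 17.7 and 18.6 CPM in the wild type libraries, 46.1, 48.6 and 49.4 CPM in upf1Δ, 16.4 to 18.4 CPM with a median of 17.3 in nmd4Δ, and 17.6, 19.8 and 20.3 CPM in ebs1Δ. The upf1Δ libraries did not overlap with any other library, and the log2 fold change was 1.46 ± 0.0624 (edgeR adjusted p = 1.16e-13). KIN28 (YDL108W), the kinase of the general transcription factor TFIIH, was at 27.9, 28.2, 29.0, 27.3 and 27.5 CPM in the wild type libraries, 46.5, 48.8 and 48.1 CPM in upf1Δ, 28.3 to 30.9 CPM with a median of 29.5 in nmd4Δ, and 32.0, 36.0 and 30.9 CPM in ebs1Δ. It rose by 0.76 ± 0.0548 on the log2 scale in upf1Δ (edgeR adjusted p = 3.21e-10), again without overlap.

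GCR1 (YPL075W), an activator of glycolytic genes with a first intron of 751 bases, was at 112, 111, 116, 125 and 117 CPM in the wild type libraries, 168, 172 and 189.7 CPM in upf1Δ, 124 to 139 CPM with a median of 133 in nmd4Δ, and 129, 119 and 129 CPM in ebs1Δ. All 3 upf1Δ libraries were above all others, and the log2 fold change was 0.66 ± 0.0523 (edgeR adjusted p = 1.43e-09). TFC3 (YAL001C), the largest subunit of the RNA polymerase III factor TFIIIC, rose by 0.46 ± 0.0434, and TAF14, a YEATS-domain subunit shared by several transcription complexes, by 0.17 ± 0.0487. The members of this group that fell did so by little: RFA2 of replication protein A had a log2 fold change of -0.15 ± 0.0641, SRC1 of the inner nuclear membrane -0.14 ± 0.0481 and HPC2 of the HIR histone chaperone -0.11 ± 0.0469. ARP9, an actin-related subunit of chromatin remodelling complexes, was not called (-0.04 ± 0.0479).

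Among the 9 members of the ubiquitin and ubiquitin-like systems, UBC12 (YLR306W) was the one with a large change in upf1Δ. It encodes the enzyme that conjugates the ubiquitin-like protein Rub1, and was at 16.1, 15.3, 14.3, 14.5 and 15.4 CPM in the wild type libraries, 42.4, 42.1 and 43.7 CPM in upf1Δ, 15.3 to 17.4 CPM with a median of 16.0 in nmd4Δ, and 18.4, 16.9 and 16.5 CPM in ebs1Δ. The upf1Δ libraries were above all others, with a log2 fold change of 1.45 ± 0.0569 (edgeR adjusted p = 3.07e-14). RUB1 itself, also a member, was at 61.8 ± 1.60 CPM in upf1Δ and 59.0 ± 3.12 CPM in wild type (SD, n = 3 sets) and was not called (0.09 ± 0.0501). UBC8, a conjugating enzyme used in the degradation of gluconeogenic enzymes, rose by 0.21 ± 0.0905, and PRE3, a catalytic proteasome subunit, by 0.17 ± 0.0580.

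UBC4 (YBR082C) and UBC5 (YDR059C) are close relatives that conjugate ubiquitin to short-lived and abnormal proteins, and reads that both genes could give make their counts uncertain. UBC4 was at 364, 339, 368, 322 and 328 CPM in the wild type libraries, 327, 326 and 327 CPM in upf1Δ, 344 to 377 CPM with a median of 365 in nmd4Δ, and 355, 287 and 329 CPM in ebs1Δ, and the groups overlapped (upf1Δ -0.07 ± 0.0687, not called). UBC5 was at 25.5, 24.7, 24.8, 23.4 and 24.1 CPM in the wild type libraries, 22.5, 21.0 and 22.1 CPM in upf1Δ, 24.0 to 28.8 CPM with a median of 26.7 in nmd4Δ, and 23.3, 23.7 and 23.8 CPM in ebs1Δ. Its upf1Δ libraries were the lowest, and it fell, with a log2 fold change of -0.21 ± 0.0586 (edgeR adjusted p = 0.00372). UBC13, which forms a heterodimer with Mms2 in DNA damage tolerance, fell (-0.14 ± 0.0529), whereas MMS2 (0.07 ± 0.0637) and the SUMO-conjugating UBC9 (-0.16 ± 0.0744) were not called.

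Of the 9 members that act on RNA, 2 rose and 4 fell in upf1Δ (all genes: 36.4% and 35.1%), with a median of -0.23. TAD3 (YLR316C), a subunit of the enzyme that deaminates adenosine in the anticodon of tRNAs, was at 27.4, 29.1, 26.3, 28.1 and 27.1 CPM in the wild type libraries, 51.6, 56.2 and 59.7 CPM in upf1Δ, 25.7 to 28.3 CPM with a median of 27.3 in nmd4Δ, and 30.5, 32.3 and 31.6 CPM in ebs1Δ. Its upf1Δ libraries were above all others and the log2 fold change was 1.00 ± 0.0570 (edgeR adjusted p = 9.07e-12). TAD3 overlaps NKP2 on the opposite strand, and NKP2 also rose in upf1Δ (1.04 ± 0.129). Whether reads were counted by strand is not given in the sources, so reads of the 2 genes may not be told apart. In nmd4Δ NKP2 rose (0.34 ± 0.0964) and TAD3 was not called (-0.02 ± 0.0430). In ebs1Δ NKP2 was not called (0.11 ± 0.136) and TAD3 rose (0.17 ± 0.0591). Of the 59 members with an annotated intron, 2 overlap a gene on the opposite strand, TAD3 among them. MTR2 (YKL186C), which exports mRNA with Mex67, was at 50.9, 51.9, 51.2, 48.4 and 54.3 CPM in the wild type libraries, 66.8, 70.3 and 67.8 CPM in upf1Δ, 45.8 to 49.1 CPM with a median of 47.2 in nmd4Δ, and 50.4, 49.4 and 54.9 CPM in ebs1Δ. Its upf1Δ libraries lay above all others, and MTR2 rose by 0.42 ± 0.0504 in upf1Δ (edgeR adjusted p = 5.71e-07).

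YRA1 (YDR381W), an mRNA export adaptor with an intron of 766 bases, was at 370.4, 389, 375, 368 and 389.5 CPM in the wild type libraries, 294, 304 and 296 CPM in upf1Δ, 353 to 382 CPM with a median of 363 in nmd4Δ, and 339, 332 and 354 CPM in ebs1Δ. Every upf1Δ and ebs1Δ library lay below every wild type library, and in upf1Δ YRA1 fell, with a log2 fold change of -0.36 ± 0.0465 (edgeR adjusted p = 1.52e-06). STO1 (YMR125W), the large subunit of the nuclear cap-binding complex, fell as well (-0.34 ± 0.0572), as did LSM7 of the Lsm ring (-0.23 ± 0.0634) and the Puf-family RNA-binding gene MPT5 (-0.24 ± 0.0986). LSM2 (-0.11 ± 0.0624) and SMD2 (-0.02 ± 0.0748), of the Lsm and Sm rings, were not called.

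DBP2 (YNL112W), a DEAD-box RNA helicase with the longest of the introns at 1002 bases, was at 360.3, 416, 372, 415 and 387 CPM in the wild type libraries, 243, 399 and 256 CPM in upf1Δ, 283 to 311 CPM with a median of 290.0 in nmd4Δ, and 304, 635 and 409 CPM in ebs1Δ. Replicate 2 of upf1Δ and replicate 2 of ebs1Δ stood well above the other libraries of their genotype, and the upf1Δ and ebs1Δ libraries overlapped wild type. DBP2 was not called in upf1Δ (-0.38 ± 0.219, edgeR adjusted p = 0.137). It was called lower when upf1Δ replicate 2 was left out (-0.66, adjusted p = 0.0137) or ebs1Δ replicate 2 was (-0.40, adjusted p = 0.0241). In nmd4Δ every library lay below every wild type library, but DBP2 was not called there either (-0.41 ± 0.162, edgeR adjusted p = 0.0745). It was called lower in nmd4Δ without upf1Δ replicate 2 (adjusted p = 0.0465), ebs1Δ replicate 1 (0.0313) or ebs1Δ replicate 2 (0.0153), and in batch 2 alone (0.00203). In batch 1 alone DBP2 was not called in nmd4Δ (-0.40 ± 0.307, edgeR adjusted p = 0.512).

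**Figure D2:**
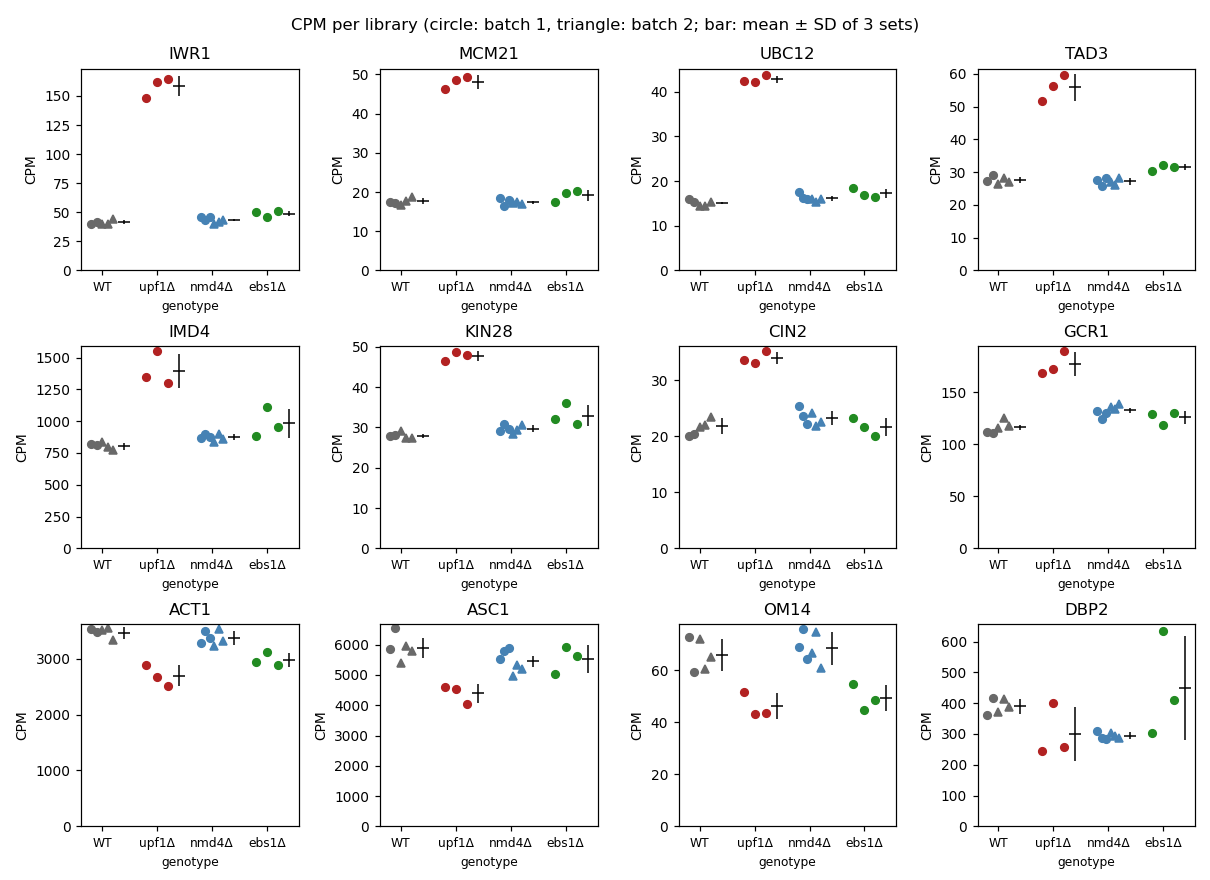
CPM of 12 members in each library (vertical axes start at 0), grouped by genotype; circles are batch 1, triangles batch 2, and bars give the mean ± SD of 3 matched sets. IWR1, MCM21, UBC12 and TAD3 show all 3 upf1Δ libraries above every other library, while ACT1, ASC1 and OM14 show them below every wild type library and DBP2 shows wide spread in upf1Δ and ebs1Δ.

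Of the 10 cytoskeletal members, 2 rose and 4 fell in upf1Δ (all genes: 36.4% and 35.1%), with a median of -0.13. ACT1 (YFL039C), the single actin gene, was at 3526, 3476, 3522, 3546 and 3340.1 CPM in the wild type libraries, 2896, 2680.3 and 2517 CPM in upf1Δ, 3233 to 3526 CPM with a median of 3342 in nmd4Δ, and 2940.3, 3127 and 2881 CPM in ebs1Δ. All upf1Δ and ebs1Δ libraries were below all wild type libraries, and in upf1Δ it fell, with a log2 fold change of -0.37 ± 0.0531 (edgeR adjusted p = 4.77e-06). The actin regulators COF1 (cofilin, -0.25 ± 0.0686) and PFY1 (profilin, -0.17 ± 0.0496) fell too, and ARP2 of the Arp2/3 complex (-0.14 ± 0.0696) and the bundling protein gene SAC6 (-0.13 ± 0.0748) were not called.

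The alpha-tubulin genes TUB1 (YML085C) and TUB3 (YML124C) are nearly identical, so their counts are uncertain. TUB1 was at 376, 314, 367, 293 and 334 CPM in the wild type libraries, 288, 253 and 244 CPM in upf1Δ, 331 to 408 CPM with a median of 359 in nmd4Δ, and 345, 319 and 297 CPM in ebs1Δ. The upf1Δ libraries were below all wild type libraries, and TUB1 fell, with a log2 fold change of -0.41 ± 0.0921 (edgeR adjusted p = 0.000619). TUB3 was at 251, 237, 254, 242 and 248 CPM in the wild type libraries, 230.1, 241 and 231 CPM in upf1Δ, 244 to 258 CPM with a median of 255 in nmd4Δ, and 239.7, 231 and 234 CPM in ebs1Δ, with overlap and no call (-0.06 ± 0.0450). CIN2 (YPL241C), which acts with Cin1 and Cin4 in the folding of tubulin, was at 20.1, 20.4, 21.7, 22.0 and 23.5 CPM in the wild type libraries, 33.5, 33.1 and 35.2 CPM in upf1Δ, 21.9 to 25.4 CPM with a median of 23.1 in nmd4Δ, and 23.3, 21.6 and 20.0 CPM in ebs1Δ. It rose by 0.67 ± 0.0708 in upf1Δ without overlap (edgeR adjusted p = 9.61e-08). YSC84, an actin-binding protein of endocytic patches, rose by 0.41 ± 0.104, and the dynein light chain DYN2 was not called (0.02 ± 0.0725).

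In membrane traffic, 1 of 8 members rose and 4 fell in upf1Δ (all genes: 36.4% and 35.1%), none by much. SAR1 (YPL218W), the GTPase of COPII coats, was at 454, 415, 447, 416 and 463 CPM in the wild type libraries, 386, 355 and 352 CPM in upf1Δ, 440.0 to 461 CPM with a median of 446 in nmd4Δ, and 392, 419 and 394 CPM in ebs1Δ; its upf1Δ libraries were below every wild type library, and it fell, with a log2 fold change of -0.26 ± 0.0546 (edgeR adjusted p = 0.000307). ERD2 (YBL040C), the receptor that returns proteins to the endoplasmic reticulum, was at 119.7, 129.9, 115, 123 and 134 CPM in the wild type libraries, 122, 102 and 106 CPM in upf1Δ, 114 to 129 CPM with a median of 119 in nmd4Δ, and 113, 121 and 130.1 CPM in ebs1Δ. The groups overlapped, and its call (-0.20 ± 0.0731, edgeR adjusted p = 0.0202) was lost without wild type replicate 2 (adjusted p = 0.0526) or upf1Δ replicate 2 (adjusted p = 0.0727). The COPI subunit SEC27 (-0.16 ± 0.0449) and the SNARE disassembly factor SEC17 (-0.12 ± 0.0459) fell, and BET4, a subunit of the enzyme that prenylates Rab GTPases, rose by 0.18 ± 0.0548. The SNARE genes SNC1 (0.01 ± 0.0674), BET1 (0.08 ± 0.0683) and NYV1 (0.04 ± 0.0465) were not called.

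Of the 5 members of translation and signalling, 1 rose and 3 fell in upf1Δ (all genes: 36.4% and 35.1%). ASC1 (YMR116C), a ribosome-bound G-protein beta-like protein, was at 5846, 6544, 5407, 5949 and 5781 CPM in the wild type libraries, 4588, 4552 and 4026 CPM in upf1Δ, 4968 to 5888 CPM with a median of 5424 in nmd4Δ, and 5037, 5938 and 5643 CPM in ebs1Δ. Its upf1Δ libraries lay below every wild type library, with a log2 fold change of -0.51 ± 0.0650 (edgeR adjusted p = 1.33e-06). GLC7 (YER133W), the catalytic subunit of protein phosphatase 1, was at 279, 287, 283, 286 and 281 CPM in the wild type libraries, 224, 227 and 205 CPM in upf1Δ, 263 to 276 CPM with a median of 268 in nmd4Δ, and 256, 257 and 245 CPM in ebs1Δ; upf1Δ and ebs1Δ both lay below wild type without overlap, and the upf1Δ log2 fold change was -0.38 ± 0.0475 (edgeR adjusted p = 9.61e-07). EFB1, an elongation factor subunit, fell (-0.19 ± 0.0612), the cyclin-dependent kinase PHO85 was not called (0.05 ± 0.0806), and PTC7, whose retained intron gives no early stop, rose by 0.12 ± 0.0465.

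Of the 9 metabolic members, 4 were higher and 4 lower in upf1Δ (all genes: 36.4% and 35.1%). IMD4 (YML056C), an IMP dehydrogenase of guanine nucleotide synthesis, was at 817, 816, 837, 798 and 772 CPM in the wild type libraries, 1346, 1548 and 1297 CPM in upf1Δ, 836 to 902 CPM with a median of 874 in nmd4Δ, and 886, 1111 and 950.1 CPM in ebs1Δ. The upf1Δ libraries were above all others, and the log2 fold change was 0.77 ± 0.0719 (edgeR adjusted p = 1.66e-08); IMD4 shares most of its sequence with IMD2 and IMD3, so its count is uncertain. HNT1 (YDL125C), a nucleoside phosphoramidase, rose by 0.32 ± 0.0584, ERV1 (YGR029W), the sulfhydryl oxidase of the mitochondrial intermembrane space, by 0.28 ± 0.0716, and HNT2, a dinucleoside triphosphate hydrolase, by 0.16 ± 0.0687.

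OM14 (YBR230C), a protein of the mitochondrial outer membrane, was at 72.9, 59.5, 72.1, 60.5 and 65.0 CPM in the wild type libraries, 51.9, 43.1 and 43.5 CPM in upf1Δ, 60.9 to 75.9 CPM with a median of 67.8 in nmd4Δ, and 54.9, 44.9 and 48.5 CPM in ebs1Δ. Both upf1Δ and ebs1Δ lay below every wild type library, and in upf1Δ it had the largest fall of the members, with a log2 fold change of -0.54 ± 0.104 (edgeR adjusted p = 0.0002). ECM33 (YBR078W), a cell wall protein, was at 1748, 1858, 1728, 1833 and 1754 CPM in the wild type libraries, 1585, 1346 and 1314 CPM in upf1Δ, 1582 to 1843 CPM with a median of 1709.9 in nmd4Δ, and 1443, 1669 and 1571 CPM in ebs1Δ, with both upf1Δ and ebs1Δ below wild type and an upf1Δ log2 fold change of -0.39 ± 0.0679 (edgeR adjusted p = 5.01e-05). PMI40, which makes mannose 6-phosphate, fell (-0.41 ± 0.101), as did CPT1 of phosphatidylcholine synthesis (-0.24 ± 0.0655); its relative EPT1 was not called (-0.01 ± 0.0575).

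Of the calls in upf1Δ, 13 of the 19 rises and 18 of the 24 falls were called in all 17 fits that each left out 1 library. Single omissions ended the calls of UBC8, BET4, PRE3, HNT2, TAF14 and PTC7 among the rises, and of SEC17, ERD2, HPC2, UBC13, MPT5 and RFA2 among the falls. The libraries were upf1Δ replicate 3 for TAF14, wild type replicate 1 for SEC17 and UBC13, upf1Δ replicates 2 and 3 for BET4, wild type replicate 2 and upf1Δ replicate 3 for PRE3, and from 4 to 12 different libraries for UBC8, HNT2, PTC7, HPC2, MPT5 and RFA2. The highest adjusted p without 1 library ranged from 0.0579 for TAF14 to 0.248 for UBC8 in edgeR.

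The rises in upf1Δ were spread unevenly over the splice signals of the members. Each of the 4 that rose at least 2-fold had a 5′ site other than GTATGT or no TACTAAC in its first intron. In all, 22 members had such a difference, and 11 of these rose and 6 fell. Over all genes tested, 36.4% rose and 35.1% fell. Of the 37 members with both usual signals, 7 rose, 18 fell and none rose 2-fold. Rises of at least 2-fold numbered 946 over all 6162 genes tested. By branch alone, the 46 with TACTAAC had 10 rises, 20 falls and a median log2 fold change of -0.12, and the 13 without it had 8 rises, 4 falls and a median of 0.18. Those 13 were IWR1, MCM21, TAD3, CIN2, ERV1, UBC8, BET4, PTC7, NYV1, HPC2, YRA1, PMI40 and OM14, so the deepest fall was among them too.

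The other intron-containing genes of the annotation, 97 of 106 tested after ribosomal protein genes, meiotic genes and members were set aside, had the same order of medians by branch. The 106 include relatives such as YRF1-3, YRF1-6 and YRF1-7, and reads that such relatives share would make their counts uncertain. The 77 with TACTAAC had 33 rises, 18 falls and a median of 0.07 in upf1Δ, and the 20 without it had 15 rises, 1 fall and a median of 0.43. Rises of at least 2-fold, 946 over all 6162 genes tested, did not have that order: 11 were among the 77 with TACTAAC and 2 among the 20 without it. By both signals, 4 were among the 55 with both usual and 9 among the 42 with a difference. By the 5′ site, the 50 members with GTATGT had 15 rises, 22 falls and a median of -0.11, against 3 rises, 2 falls and a median of 0.01 for the other 9. By length, 11 of the 15 members with a first intron of at least 200 bases fell and 2 rose (median -0.24), against 13 and 16 of the 44 with a shorter one (median 0.01). The other intron-containing genes had the opposite order by length: the 14 tested with at least 200 bases had 7 rises, 2 falls and a median of 0.29, and the 83 with shorter ones had 41 rises, 17 falls and a median of 0.13. These are descriptions of the genes listed, and no test of them was made.

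**Figure D3:**
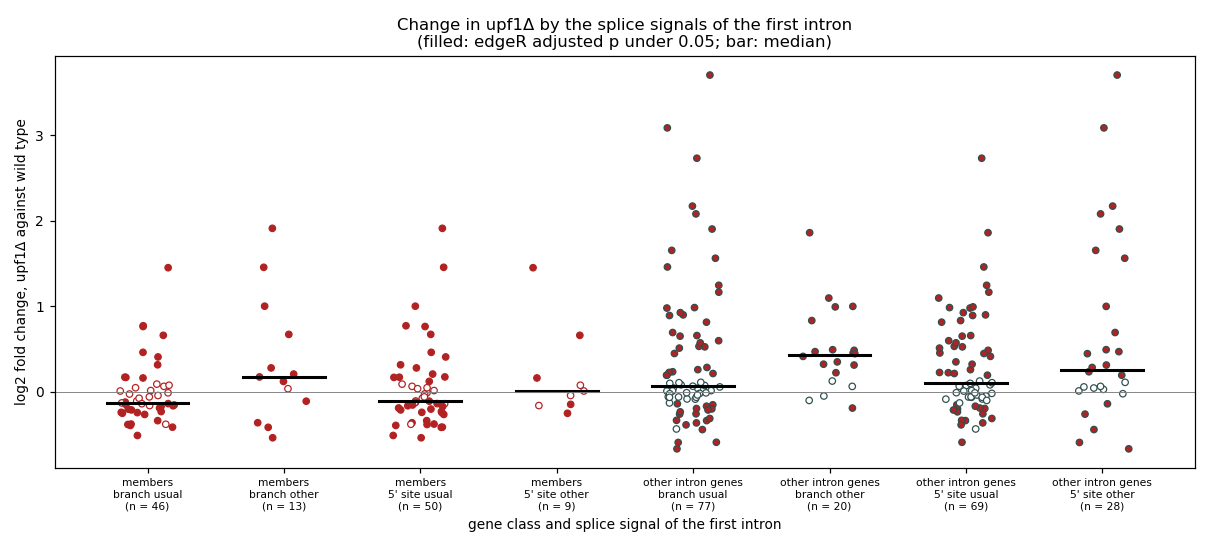
Log2 fold change in upf1Δ against wild type (vertical axis) for members and for other intron-containing genes, by the splice signal of the first intron; each point is a gene, filled where the edgeR adjusted p is under 0.05, and bars are medians. Genes without TACTAAC have the higher median in both classes, 0.18 against -0.12 in members and 0.43 against 0.07 in the others, with wide overlap.

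Read level moved with the change as well. Of the 16 members with a mean level below the median of tested genes, 8 rose and 4 fell (median 0.12), and of the 44 above it, 11 rose and 20 fell (median -0.13). Over all genes tested, 1677 of the 3081 below that median rose and 486 fell (median 0.33), and of the 3081 above it 565 rose and 1676 fell (median -0.18). Levels here are CPM, not divided by gene length, and the part of read level in the difference by splice signal was not tested.

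**Figure D4:**
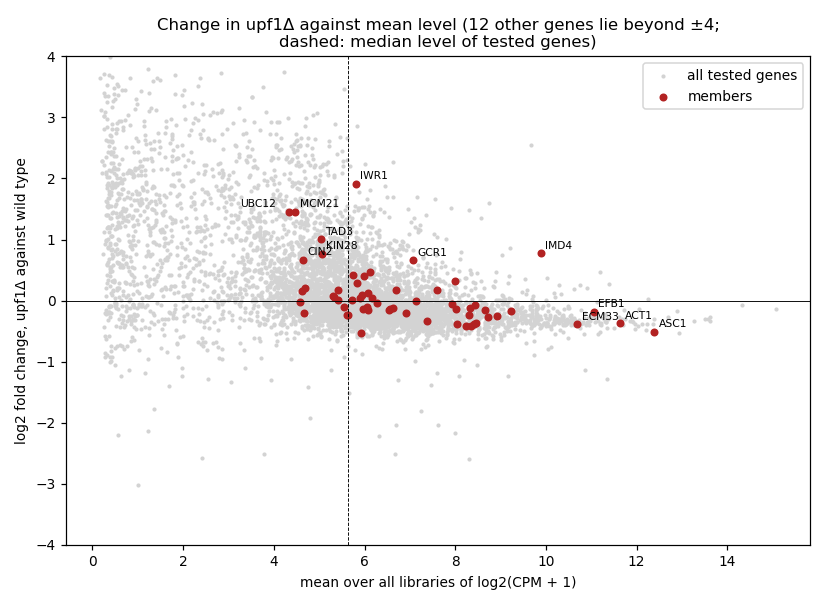
Log2 fold change in upf1Δ against wild type (vertical axis) by mean log2(CPM + 1) over all libraries (horizontal axis), with members over all genes tested; the dashed line is the median level and 12 other genes lie beyond the axis. Members below the median level have a median change of 0.12 and those above it -0.13, beside 0.33 and -0.18 for all genes.

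Counts over other gene classes set the members in context, beside 36.4% of all genes called higher and 35.1% called lower in upf1Δ. The other intron-containing genes had 48 rises and 19 falls among 97 tested in upf1Δ, a median of 0.13, and 13 that rose at least 2-fold (all genes: 946 of 6162). Those with the lowest p were NBL1 (2.73 ± 0.0930), MAF1 (1.25 ± 0.0522), MAY24 (1.86 ± 0.0862) and ATG38 (1.00 ± 0.0548). Of the 89 intron-containing ribosomal protein genes, 4 rose and 82 fell (median -0.32). Of 44 genes of the splicing machinery, 19 rose and 13 fell (median 0.00). Those with the lowest p were PRP5 (1.29 ± 0.0596), PRP6 (0.87 ± 0.0474), PRP46 (1.12 ± 0.0610) and the debranching enzyme DBR1 (0.97 ± 0.0579).

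Genes without an intron that act with the members, or resemble them, gave 10 rises and 30 falls among 55 in upf1Δ, with a median of -0.18. Those with the lowest p were PHO80 (0.68 ± 0.0494), SMD1 (0.47 ± 0.0501), SEC26 (-0.43 ± 0.0458) and UBA3 (0.90 ± 0.0967). Members were also set beside particular partners, in pairs chosen with the members' values known. In 17 pairs the member rose, and in these the partner rose in 5, fell in 7 and was not called in 5. Over all genes tested, 36.4% rose and 35.1% fell.

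Partners of the risen members went both ways. KIN28 rose by 0.76 ± 0.0548, while its cyclin CCL1 (-0.18 ± 0.0502) and the TFIIH subunit TFB3 (-0.22 ± 0.050) fell. IMD4 rose, and its intronless relative IMD3 fell (-0.27 ± 0.0790). MTR2 rose, and MEX67 fell (-0.37 ± 0.0557). TAD2, the catalytic partner of Tad3, was not called (0.16 ± 0.0956). By contrast, CIN1 (0.60 ± 0.0681) and CIN4 (0.60 ± 0.0778) rose with CIN2, and UBA3 (0.90 ± 0.0967) and ULA1 (0.70 ± 0.0797), which activate Rub1, rose with UBC12, though by less. In the COMA complex CTF19 rose (0.84 ± 0.105), AME1 fell (-0.32 ± 0.0621) and OKP1 was not called (-0.04 ± 0.0742). The differences between member and partner were not tested.

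**Figure D5:**
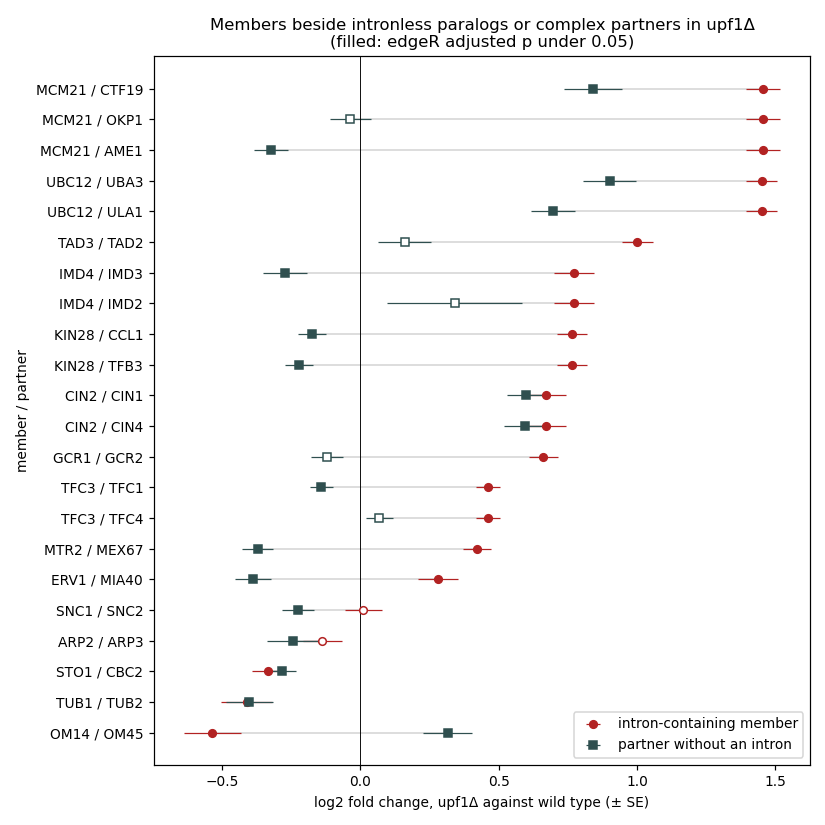
Log2 fold change in upf1Δ against wild type (horizontal axis, ± SE) of members (circles) and their partners without an intron (squares) in 22 pairs; filled points have an edgeR adjusted p under 0.05. MCM21, UBC12, TAD3, IMD4 and KIN28 lie to the right of each of their partners, while CIN2 lies beside CIN1 and CIN4 and TUB1 beside TUB2.

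In nmd4Δ the members changed little. Of the 60, 6 rose and 4 fell, against 13.6% and 14.4% of all genes tested, with a median log2 fold change of 0.02, and no member changed 2-fold. Few genes did so at all: 36 rose and 23 fell at least 2-fold of all 6162 tested. In 3 members every nmd4Δ library lay above every wild type library and in 3 every one lay below, against 7.94% and 10.0% of all genes. The rises were YSC84 (0.23 ± 0.0773), GCR1 (0.20 ± 0.0391), SNC1 (0.18 ± 0.0495), PRE3 (0.17 ± 0.0433), RFA2 (0.16 ± 0.0472) and MMS2 (0.14 ± 0.0464), and the falls LSM7 (-0.13 ± 0.0461), MTR2 (-0.12 ± 0.0375), ARP9 (-0.12 ± 0.0353) and HPC2 (-0.09 ± 0.0342).

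SNC1, a SNARE of secretory vesicles, was at 54.0, 49.6, 52.4, 48.4 and 48.7 CPM in the wild type libraries, 47.3, 50.3 and 53.2 CPM in upf1Δ, 53.5 to 60.2 CPM with a median of 57.7 in nmd4Δ, and 51.2, 42.2 and 46.6 CPM in ebs1Δ, with nmd4Δ and wild type overlapping slightly. YSC84 was at 64.6, 51.5, 62.4, 54.5 and 54.1 CPM in the wild type libraries, 78.2, 72.2 and 78.2 CPM in upf1Δ, 64.9 to 72.2 CPM with a median of 66.3 in nmd4Δ, and 63.4, 45.8 and 46.5 CPM in ebs1Δ. Its nmd4Δ libraries lay above all wild type libraries and its ebs1Δ libraries overlapped them. IWR1 (0.07 ± 0.0432), MCM21 (-0.01 ± 0.0477), UBC12 (0.09 ± 0.0436) and TAD3 (-0.02 ± 0.0430), which rose most in upf1Δ, were not called in nmd4Δ.

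The nmd4Δ calls depended on how matched libraries were treated. So did those of all genes. With matched sets as a block in limma voom, 3 members rose (GCR1, SNC1 and PRE3) and none fell, against 5.52% and 5.23% of all genes. With batch 1 alone no member was called, against 1.44% of all genes higher and 0.694% lower, and with matched libraries summed none was, against 4.31% and 1.84%. In the fits that left out 1 library, GCR1, SNC1, PRE3 and RFA2 were called in all 17, and none of the 4 falls was. MMS2 and YSC84 lost their calls when any of wild type replicates 2, 4 and 5 or nmd4Δ replicates 2, 4 and 5 was left out (edgeR adjusted p up to 0.0852 and 0.0877). ARP9 lost its call without wild type replicate 2 (0.0718), MTR2 without wild type replicate 2 or 5 or nmd4Δ replicate 3, 4 or 5 (up to 0.121), and LSM7 and HPC2 without most libraries (up to 0.18 and 0.3). The count of rises was 10 without ebs1Δ replicate 2, where 997 of 6207 genes tested rose. The count of falls was 0 without wild type replicate 2, where 441 of 6159 genes fell. It was 1 without nmd4Δ replicate 4 or 5 (692 of 6160 and 675 of 6159 genes). It was 2 without wild type replicate 4 or 5, upf1Δ replicate 1 or 3, nmd4Δ replicate 1, 2 or 3 or ebs1Δ replicate 3. In those fits 532 to 820 of all genes fell.

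In ebs1Δ, 5 members rose and 10 fell, against 14.0% and 7.38% of all genes, with a median of -0.07 and no change of 2-fold. Few genes changed by that much here too: 54 rose and 16 fell at least 2-fold of all 6162 tested. In 5 members every ebs1Δ library lay above every wild type library and in 12 every one lay below, against 17.2% and 11.9% of all genes. The rises were IMD4 (0.26 ± 0.0720), KIN28 (0.23 ± 0.0562), IWR1 (0.22 ± 0.0589), TAD3 (0.17 ± 0.0591) and GCR1 (0.17 ± 0.0527), all of which also rose in upf1Δ. Both comparisons share the wild type libraries. MCM21 (0.13 ± 0.0662) and UBC12 (0.15 ± 0.0603) were not called in ebs1Δ.

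The falls in ebs1Δ were led by OM14 (-0.44 ± 0.104, edgeR adjusted p = 0.00612), ECM33 (-0.25 ± 0.0678, 0.0133) and ACT1 (-0.23 ± 0.0530, 0.00434), whose levels in each library are given above. The others were COF1 (-0.20 ± 0.0686), EFB1 (-0.20 ± 0.0612), HNT2 (-0.20 ± 0.0704), GLC7 (-0.17 ± 0.0473), YRA1 (-0.16 ± 0.0464), SRC1 (-0.14 ± 0.0482) and NYV1 (-0.14 ± 0.0468). HNT2 had risen in upf1Δ (0.16 ± 0.0687) and NYV1 was not called there.

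OM14 and ACT1 were the members called in ebs1Δ in all 17 fits that left out 1 library; both were also called in batch 1 alone, as was IWR1. Each of the other 13 lost its call in at least 1 such fit, with edgeR adjusted p up to the values given here. KIN28 (0.0506) and IMD4 (0.0812) lost theirs without ebs1Δ replicate 2, ECM33 (0.0575) without ebs1Δ replicate 1, IWR1 (0.0653) without wild type replicate 1 or ebs1Δ replicate 3, GLC7 (0.0798) without wild type replicate 2 or ebs1Δ replicate 3, and YRA1 (0.0681) without wild type replicate 2 or ebs1Δ replicate 2. EFB1 (0.0899) lost it without wild type replicate 1 or ebs1Δ replicate 2 or 3, GCR1 (0.0883) without wild type replicate 1 or 2 or ebs1Δ replicate 1 or 3, and TAD3, COF1, HNT2, NYV1 and SRC1 without 9 or more of the libraries. The count of rises was 2 without wild type replicate 1 (694 of 6154 genes tested), ebs1Δ replicate 2 (722 of 6207) or ebs1Δ replicate 3 (752 of 6207). The count of falls was 4 without wild type replicate 2 (315 of 6159) or ebs1Δ replicate 3 (301 of 6207). It was 5 without ebs1Δ replicate 2 (264 of 6207), and 6 without nmd4Δ replicate 1 (416 of 6159) or 6 (386 of 6159).

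Set against upf1Δ, the other deletions differed most at IWR1 and MCM21, the members with the largest rises in upf1Δ. In nmd4Δ against upf1Δ, 23 members were higher and 18 lower, against 30.9% and 36.0% of all genes, and in ebs1Δ against upf1Δ 12 were higher and 21 lower, against 27.4% and 33.8%. The log2 difference of IWR1 from its upf1Δ level was -1.84 ± 0.0529 in nmd4Δ and -1.69 ± 0.0580 in ebs1Δ, with edgeR adjusted p of 4.08e-16 and 1.29e-14. MCM21 was next, at -1.47 ± 0.0582 and -1.33 ± 0.0633 (3.86e-14 and 1.29e-12).

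Between ebs1Δ and nmd4Δ, 3 members were higher and 17 lower in ebs1Δ, against 16.0% and 10.0% of all genes. DBP2 was higher (0.61 ± 0.203, edgeR adjusted p = 0.0408), as were TAD3 (0.20 ± 0.0560) and KIN28 (0.15 ± 0.0530), and OM14 was lower (-0.49 ± 0.0983, adjusted p = 0.00303). None of the 3 higher calls and 5 of the 17 lower ones (SNC1, EFB1, OM14, UBC5 and PHO85) were made in all 17 fits that left out 1 library. The call of DBP2 was lost without ebs1Δ replicate 2 or 3, wild type replicate 1, 4 or 5, or any nmd4Δ library. The count of higher calls was 0 without nmd4Δ replicate 2 (678 of 6161 genes tested) or ebs1Δ replicate 2 (413 of 6207), and 6 without ebs1Δ replicate 1 (1172 of 6209). It was 1 without wild type replicate 1, 4 or 5, nmd4Δ replicate 1, 3, 4 or 5, or ebs1Δ replicate 3. In those fits 501 to 966 of all genes were higher. The count of lower calls was 8 without nmd4Δ replicate 1 (441 of 6159) or ebs1Δ replicate 2 (252 of 6207). It was 11 without nmd4Δ replicate 2 (347 of 6161) and 6 without ebs1Δ replicate 3 (275 of 6207).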

How the data were processed

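The authors deposited a table of unnormalised read counts, genes by the 17 libraries. Per the labels' protocols, RNA was extracted with hot phenol, treated with DNase, selected for poly(A) and made into directional libraries. Per the submitters' processing notes, the authors used STAR 2.7.11a and featureCounts of Subread 2.0.5 with sacCer3; the sources used here do not name the annotation, the strand setting or the treatment of multi-mapping reads. All value columns were used.

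Counts of 6162 genes kept by filterByExpr were scaled by TMM and fitted in edgeR 4.0.16 (R 4.3.3, robust quasi-likelihood) with terms for genotype and batch; all groups entered 1 fit with 12 residual degrees of freedom, and tests were two-sided. SE is the log2 fold change over the square root of F. CPM carries no batch correction. Libraries were matched across batches by residual correlations (0.678 to 0.882 within matched pairs, -0.834 to 0.426 otherwise). Residuals were taken from the genotype mean within a batch, so the matched and other values are tied. For wild type they mirror each other. Alternatives used limma 3.58.1 and DESeq2 1.42.0. Replicate numbers paired upf1Δ and nmd4Δ libraries by residual correlation alone (0.127 to 0.182); no label says what they share. The pipeline was tested on simulated data. Introns came from the R64 RefSeq annotation.

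The members and lists were chosen with earlier results of these data known. Values per library are given for the 8 members that define the list, the 2 called members with the largest change in upf1Δ in each role, and the largest changes of the other comparisons; the other members are named by role.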

Additional observations from a re-analysis of the deposited data

How the results depend on the processing

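In each comparison with wild type and between deletions, every member that was called kept its direction under every alternative run, which were DESeq2, its size factors in edgeR, no filter, no batch term, single batches, no robust fit, replicate numbers or matched sets as a block, matched libraries summed, and leaving out each library. These runs refit the same counts, and how often called genes in general kept their direction is not given here. The counts of rises and falls in upf1Δ stayed within 1.5 times under all the alternatives (13 to 19 and 20 to 27 when 1 library was left out), and the median of the members ran from -0.102 to -0.0415 when 1 library was left out.

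In nmd4Δ, the rises numbered 0 in batch 1 alone (1.44% of all genes rose there), 3 with matched sets as a block in limma voom (5.52%), 0 with matched libraries summed (4.31%), and 4 to 10 when 1 library was left out. The falls there numbered 2 with DESeq2 (13.1% of all genes), 2 with its size factors (11.7%), 0 in batch 1 alone (0.694%), 1 in batch 2 alone (7.43%), 0 with the matched block (5.23%), 0 with summed libraries (1.84%), and 0 to 6 when 1 library was left out. In ebs1Δ, the rises numbered 1 in batch 1 alone (8.73% of all genes), 3 with the matched block (10.5%) and 2 to 5 when 1 library was left out, and the falls 2 (2.55%), 6 (5.83%) and 4 to 10. Between ebs1Δ and nmd4Δ, higher calls numbered 6 without a batch term (18.3% of all genes), 0 in batch 1 alone (6.65%), 1 with the matched block (11.2%) and 0 to 6 when 1 library was left out; lower calls numbered 4 in batch 1 alone (3.29%), 9 with summed libraries (6.17%) and 6 to 20 when 1 library was left out. When 1 library was left out, rises and falls over all genes numbered 2082 to 2287 and 1998 to 2332 in upf1Δ. They numbered 646 to 997 and 441 to 988 in nmd4Δ, and 694 to 894 and 258 to 510 in ebs1Δ. Between ebs1Δ and nmd4Δ, higher and lower calls numbered 413 to 1172 and 252 to 820. The cause of these moves was not tested, and fewer libraries entered the single-batch, summed and left-out fits.

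Of 15 pairs of same-numbered libraries of 2 genotypes, 13 had a residual correlation above 0 and 9 above 0.1 (-0.0824 to 0.51), against 9 above 0 of 30 pairs with other numbers (-0.632 to 0.411). Residuals were taken from the mean of each genotype, so values of same-numbered and other pairs are tied and not an independent comparison. Between upf1Δ and nmd4Δ all 3 same-numbered pairs exceeded 0.1 (0.127 to 0.182). There the replicate number as a block gave 24 members higher and 16 lower in nmd4Δ, in place of 23 and 18. Over all 6162 genes it gave 1907 higher and 2219 lower, in place of 1907 and 2218. The other comparisons had a pair under 0.1 or only 2 pairs, and their numbers were not taken as pairing. With the block, the rises in nmd4Δ against wild type numbered 11 (14.6% of all genes), and in ebs1Δ the rises numbered 3 (12.5%) and the falls 6 (5.76%). The block went by replicate number alone and cut across the matched sets. It put wild type replicate 3, of batch 2 and matched to wild type replicate 1, with replicate 3 of the deletions in batch 1. With a threshold of 300 in place of 200 bases, 7 of the 10 members with a longer intron fell in upf1Δ and 2 rose. At the depth of these libraries small changes could be called in members, and gene counts cannot show how much of a change was unspliced RNA.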
